A study of Mus musculus with 6 samples.

Results

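The 39 genes described here encode the contractile apparatus of smooth muscle and its control: myosin and its kinase, actins and thin-filament proteins, desmin-type filaments and membrane anchors, transcription factors, enzymes that set myosin phosphorylation, small heat shock proteins, muscarinic receptors and a junction protein of the calcium store. They were chosen by name, with earlier results of these data known, and each had 1 row among the 23235 gene symbols measured. All 39 passed the filter on low values (a mean of at least 0.1 FPKM), as did 15864 rows in all. RNA came from 2 cm of duodenum next to the stomach of mice aged 6 weeks on a mixed background, with 3 controls and 3 mutants and 1 library per mouse. Controls 1 and 2 were Nkx2.2flox/+ with Rosa26Tomato/+, and control 3 was Nkx2.2flox/+ without the reporter. The 3 mutants were Nkx2.2flox/TN with Villin-Cre/+ and Rosa26Tomato/+. All 6 mice thus carried a floxed allele of Nkx2.2, a transcription factor gene, and no control carried Cre or TN, a mutant Nkx2.2 allele. Villin-Cre acts in the intestinal epithelium, whereas the TN allele is present in every tissue of the mutants, muscle included. Cre, the number of intact Nkx2.2 alleles and TN itself cannot be told apart with these groups.

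Smooth muscle shortens when calcium, entering through channels or released from the store after muscarinic signalling, binds calmodulin and activates myosin light chain kinase. The kinase phosphorylates the regulatory light chain, and myosin then pulls on actin filaments that are anchored at dense bodies and membrane plaques and braced by desmin. Myosin phosphatase reverses the step. CPI-17 restrains the phosphatase, and cGMP-dependent kinase promotes it. In the gut this machinery fills the muscle coats, the muscularis mucosae and the walls of blood vessels. Many of its genes respond to serum response factor with its coactivators myocardin and the MKL proteins.

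Values are FPKM, fragment counts scaled by transcript length and library size, so levels can be set side by side between genes. Log2 fold changes are mutant minus control on the log2(FPKM + 0.1) scale, with the standard error (SE) from limma, and p-values were adjusted over all 15864 rows. Depth, read back from the FPKM intervals, ran from 14.21 to 25.91 M implied reads per library. Nkx2-2 itself had 1, 1.03 and 1.27 FPKM in controls and 0.748, 0.744 and 0.666 FPKM in mutants (log2 −0.54, limma adjusted p = 0.786), which checks the labels only in part because a TN allele may still be transcribed. Xist and Y-linked genes showed 1 female library in each group, control 3 and mutant 3. Markers of intestinal epithelium summed to between 21200 and 29100 FPKM in each library, which does not tell duodenum from other segments. Of 12 skeletal muscle markers, Myh1, Myh4 and Pvalb were at 0 in all 6 libraries, and of 8 heart muscle markers Myl2 was. Others of both lists were present. The skeletal list summed to 12.3 to 16.3 FPKM in controls and 11.8 to 14 FPKM in mutants, and the heart list to 18.2 to 30 and 22.3 to 29.5 FPKM.

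The contractile genes had lower mean levels in the mutants as a group, by a small and fairly even amount, while no single gene passed adjustment. Of the 39, 37 had a negative log2 fold change, where 61.3% of all rows tested did. Their median was −0.34, with quartiles of −0.43 and −0.23, against a median of −0.05 over all rows with quartiles of −0.17 and 0.06. Every mutant lay below every control for 24 of the 39, where 9.92% of all rows did. No member had every mutant above every control, where 3.13% of all rows did. In limma, 25 members had an unadjusted p under 0.05 in the lower direction (4.32% of all rows) and 0 in the higher direction (1.49%). None of the 39 passed an adjusted p of 0.05, as did 0 of all rows (0.0%), and the smallest adjusted p of a member, shared by 31 of them, was 0.786. These genes were measured in the same 6 mice and are not independent of each other, and since they were chosen with results of these mice known, their shares beside those of all rows are a description.

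**Figure D1:**
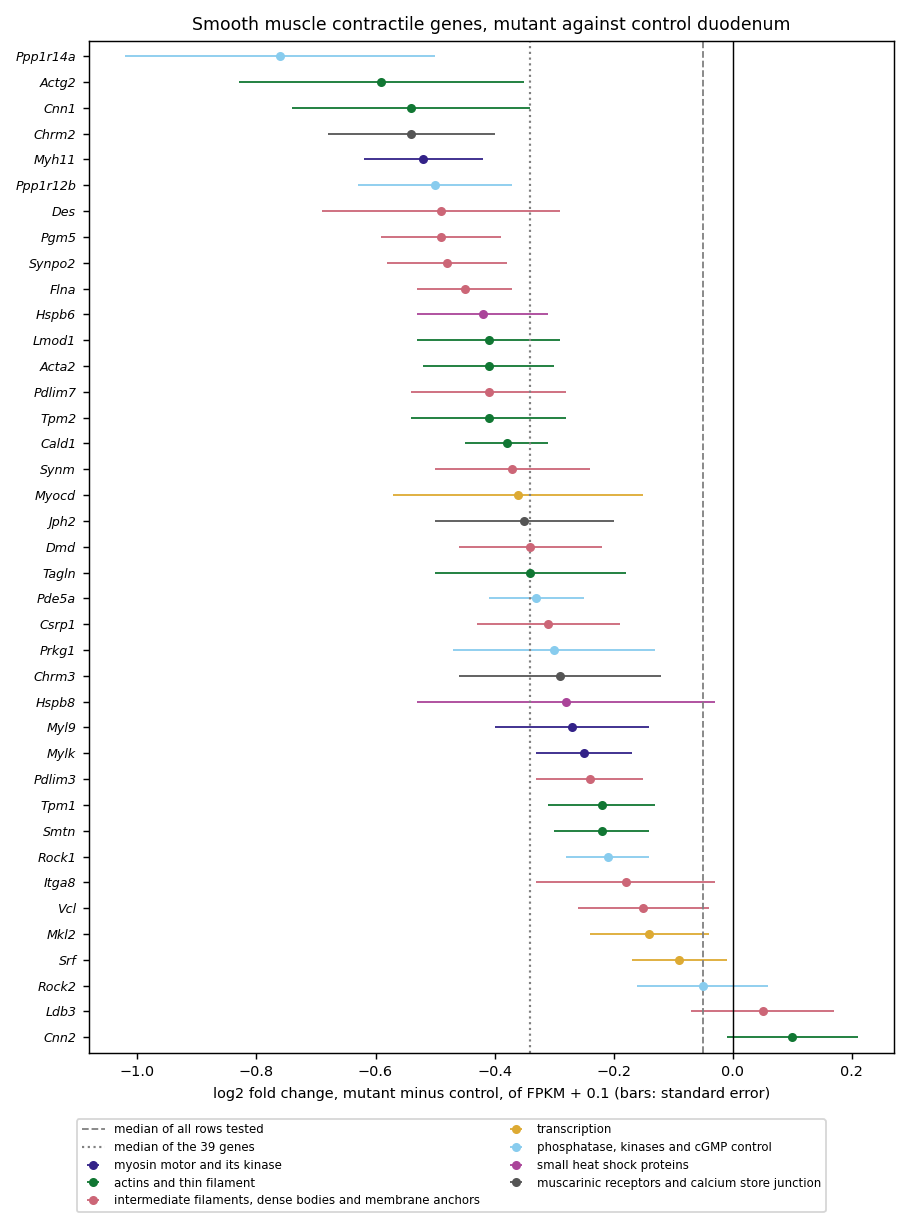
Log2 fold change, mutant minus control, of the 39 genes on the horizontal axis (points; bars are 1 standard error from limma, 3 libraries per group), coloured by role and ordered by value. All but Ldb3 and Cnn2 lie left of 0, and they scatter around their median of −0.34 (dotted) rather than the median of all rows, −0.05 (dashed).

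The evenness had limits. Log2 fold changes ran from −0.76 for Ppp1r14a to 0.10 for Cnn2, and 31 of the 39 lay between −0.6 and −0.2. Within the set, 29 genes are largely those of muscle or stroma and 10 are used by many cell types, epithelium included. The 29 had a median of −0.37 (range −0.76 to 0.05), with 19 separated between the groups. The 10 had a median of −0.18 (range −0.45 to 0.10), with 5 separated. Since the libraries hold the whole wall, fewer muscle cells and less RNA per muscle cell cannot be told apart.

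Each mutant library took part. The median over members of the log2 deviation from the control mean was −0.09, 0.04 and 0.04 in controls 1, 2 and 3, and −0.33, −0.39 and −0.28 in mutants 1, 2 and 3. Mutant 2 held the lowest of the 6 values for 20 genes, and control 3 the highest for 18. In mutants 1, 2 and 3, 35, 36 and 37 of the 39 genes lay below the control mean, where 57.6%, 54.7% and 61.6% of all rows did. In controls 1, 2 and 3 these counts were 27, 13 and 15, where 39.7%, 46.3% and 62.2% of all rows lay below, so control 1 was itself low for most of the contractile genes.

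The counts depended on scaling and on single libraries more than the median did. With trimmed mean scaling 15 members were separated (6.34% of all rows) and 14 had an unadjusted p under 0.05 in the lower direction (2.57%), with a median of −0.29. Those 15 were among the 24, and the 9 that lost separation were Mylk, Acta2, Actg2, Cnn1, Tpm2, Synm, Pdlim7, Mkl2 and Jph2. Over all rows the split at that p was 685 lower and 237 higher without rescaling, and 407 lower and 505 higher with it. The count of 25 was also 14 without control 2 (4.16% of all rows) and 14 without mutant 2 (5.64%).

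**Figure D2:**
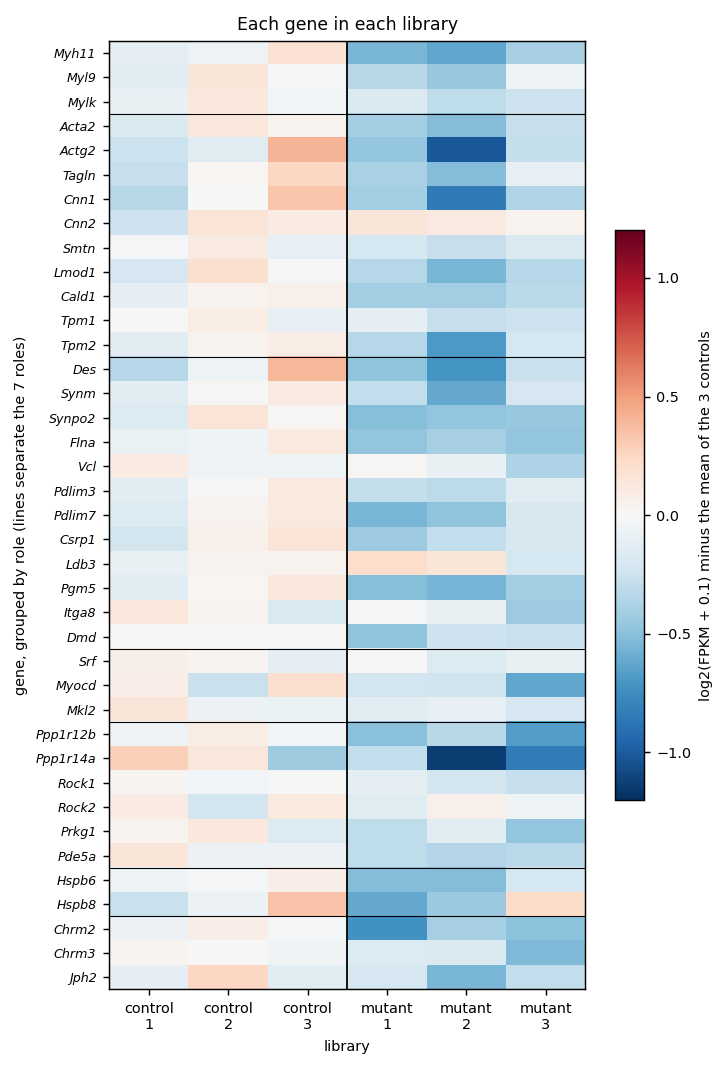
Log2(FPKM + 0.1) of each gene in each library minus the mean of the 3 controls (blue lower, red higher), with genes in rows grouped by role and libraries in columns. The 3 mutant columns are mostly blue, and Cnn2 and, in mutants 1 and 2, Ldb3 are pale red there.

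Of the 3 motor genes, all had negative log2 fold changes and 2 were separated. Myh11, smooth muscle myosin heavy chain (mm9 chr16:14194620-14291501), had 70.6, 73.5 and 86.1 FPKM in controls and 52.3, 49.5 and 58 FPKM in mutants. The highest mutant lay below the lowest control. Group levels were 76.7 ± 8.23 FPKM in controls and 53.2 ± 4.37 FPKM in mutants (SD, n = 3 each), a log2 fold change of −0.52 (SE 0.10, limma unadjusted p = 0.00138, adjusted p = 0.786). Mylk, the myosin light chain kinase, had 75.2, 87.3 and 78.3 FPKM in controls and 70.8, 64.7 and 67.4 FPKM in mutants. Its groups stood apart by less, with means of 80.3 and 67.6 FPKM and a log2 fold change of −0.25 (SE 0.08), and its locus shares 3475 bases with 1700119H24Rik. Myl9, the regulatory light chain that the kinase phosphorylates, had 218 ± 21.2 FPKM in controls and 181 ± 26.3 FPKM in mutants with overlapping groups (log2 −0.27, SE 0.13).

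The 10 actin and thin-filament genes had a median of −0.40, with 9 negative and 8 separated, or 4 with trimmed mean scaling. Acta2, smooth muscle alpha actin (mm9 chr19:34315581-34329826), had 174, 216 and 203 FPKM in controls and 148, 137 and 162 FPKM in mutants. No mutant reached the lowest control (means of 198 and 149 FPKM, log2 −0.41, SE 0.11, limma unadjusted p = 0.00712). Actg2, the gamma actin typical of visceral muscle (mm9 chr6:83462903-83486245), had 121, 131 and 192 FPKM in controls and 105, 71.5 and 119 FPKM in mutants. These groups cleared each other by a narrow margin and were wide within (means of 148 and 98.3 FPKM, log2 −0.59, SE 0.24). The Actg2 to Acta2 ratio was 0.606 to 0.945 in controls and 0.522 to 0.732 in mutants, so the 2 actins were not set apart from each other. Only 0.404% of 50-base windows of the Acta2 transcript, and none of Actg2, occurred in another gene's transcript.

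Proteins along the thin filament gave values in the same range. Cald1, caldesmon, which restrains the interaction of actin and myosin, had 27.1, 30 and 30.4 FPKM in controls and 21.9, 21.8 and 23.3 FPKM in mutants. Both groups were tight and well apart (means of 29.1 and 22.3 FPKM, log2 −0.38, SE 0.07, limma unadjusted p = 0.00141). Tagln, transgelin or SM22 alpha, an actin-binding protein, had 117, 144 and 168 FPKM in controls and 108, 98.4 and 132 FPKM in mutants. Mutant 3 lay above control 1, so transgelin overlapped (means of 143 and 113 FPKM, log2 −0.34, SE 0.16).

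The other 5 of the role with lower means were all separated. Cnn1, smooth muscle calponin, had 59.8 ± 13.7 FPKM in controls and 40.9 ± 7.29 FPKM in mutants (log2 −0.54). Tpm2, beta tropomyosin, had 64.4 ± 4.77 FPKM in controls and 48.7 ± 7.96 FPKM in mutants (log2 −0.41). Lmod1, leiomodin, which nucleates actin filaments, had 9.07 ± 1.26 FPKM in controls and 6.77 ± 0.546 FPKM in mutants (log2 −0.41). The smallest differences of these were in Smtn, smoothelin, and Tpm1, alpha tropomyosin. Smtn had 18 ± 1.25 FPKM in controls and 15.4 ± 0.568 FPKM in mutants (log2 −0.22), and Tpm1, the most abundant of the 39, had 361 ± 22.6 FPKM in controls and 311 ± 18.7 FPKM in mutants (log2 −0.22).

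Cnn2 departed from the rest. This calponin, made by many cell types, had 20.9, 27.6 and 26.6 FPKM in controls and 27.5, 26.7 and 25.6 FPKM in mutants. The groups overlapped, with control 1 the lowest of the 6 libraries (means of 25 and 26.6 FPKM, log2 0.10, SE 0.11, and −0.03 without control 1). The ratio of Cnn1 to Cnn2 was 2.14 to 2.78 in controls and 1.22 to 1.79 in mutants, without overlap. It was the only one of 7 ratios computed between members that did not overlap; the others were Actg2, Myh11 and Des over Acta2, Myocd over Srf, Chrm2 over Chrm3 and Tpm2 over Tpm1.

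**Figure D3:**
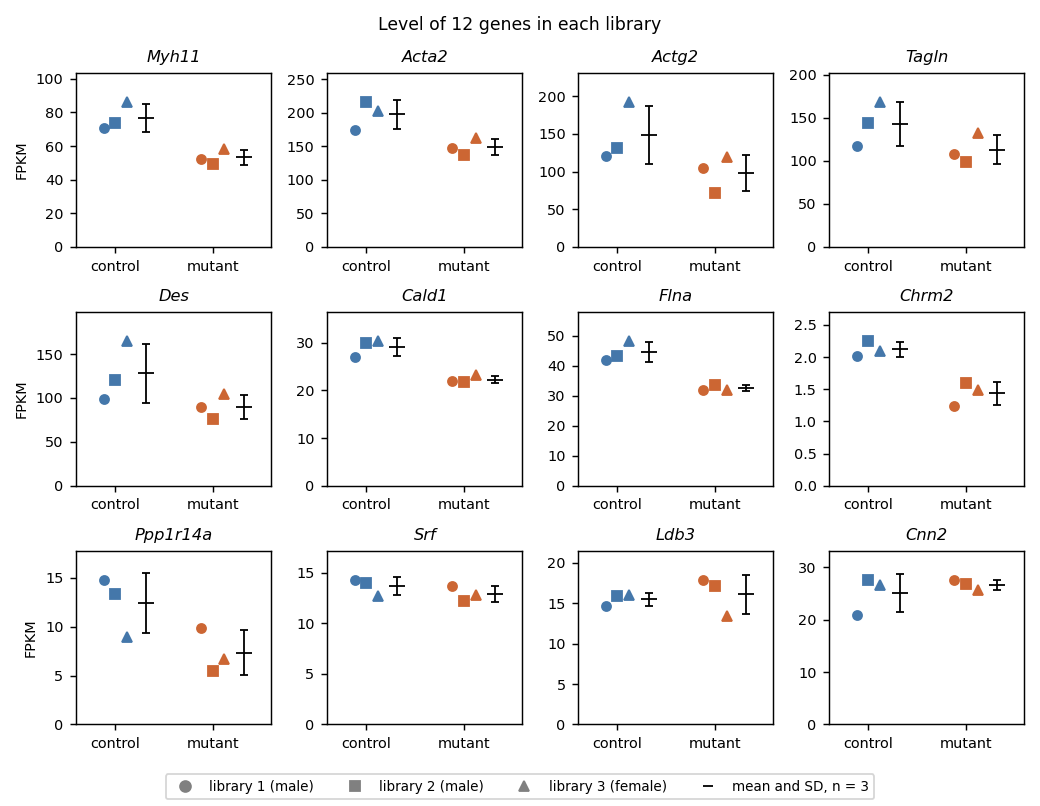
FPKM of 12 genes in each library (circles, squares and triangles for libraries 1, 2 and 3 of each group, blue controls and orange mutants), with the mean and SD of 3 libraries beside them and axes from 0. Myh11, Acta2, Actg2, Cald1, Flna and Chrm2 have all mutants below all controls, whereas Tagln, Des, Ppp1r14a and Srf overlap and Ldb3 and Cnn2 have no lower mutant mean.

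The 12 genes of intermediate filaments, dense bodies and membrane anchors had a median of −0.36, with 11 negative and 6 separated. Flna, filamin A, which cross-links actin and ties it to integrins (mm9 chrX:71468800-71491873), had 42.1, 43.2 and 48.3 FPKM in controls and 31.9, 33.7 and 32 FPKM in mutants. It had the smallest unadjusted p of the 39 in limma (0.000639, adjusted p = 0.786), rank 7 among all rows, with the groups far apart (means of 44.6 and 32.5 FPKM, log2 −0.45, SE 0.08). Synpo2, myopodin, an actin-binding protein, had 8.61, 10.8 and 9.77 FPKM in controls and 6.78, 6.97 and 7.03 FPKM in mutants. Its mutants were nearly equal to each other and below each control (means of 9.72 and 6.93 FPKM, log2 −0.48, SE 0.10). Des, desmin, the muscle intermediate filament (mm9 chr1:75356919-75364290), had 98.5, 120 and 165 FPKM in controls and 89.5, 75.8 and 104 FPKM in mutants. Control 1 lay below mutant 3, so desmin overlapped (means of 128 and 89.7 FPKM, log2 −0.49, SE 0.20).

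Of the other anchors, 4 were separated. Pgm5, aciculin, a protein of cell-matrix and cell-cell junctions, had 6.63 ± 0.636 FPKM in controls and 4.68 ± 0.25 FPKM in mutants (log2 −0.49). Its locus shares 1401 bases with E030010A14Rik, and without strand reads of the 2 genes cannot be told apart there. Pdlim7, a PDZ and LIM protein, had 11.3 ± 1.11 FPKM in controls and 8.54 ± 1.18 FPKM in mutants (log2 −0.41). Synm, synemin, a partner of desmin, had 10.2 ± 0.846 FPKM in controls and 7.91 ± 1.15 FPKM in mutants (log2 −0.37). Dmd, dystrophin, which links actin to the membrane, had 2.1 ± 0.0239 FPKM in controls and 1.65 ± 0.156 FPKM in mutants (log2 −0.34), with controls close together.

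The remaining anchors overlapped. Csrp1, a LIM protein of the actin cytoskeleton, had 88.6 ± 11.8 FPKM in controls and 71.3 ± 5.94 FPKM in mutants (log2 −0.31). Pdlim3, a PDZ and LIM protein that binds alpha actinin, had 28.4 ± 2.56 FPKM in controls and 24 ± 1.67 FPKM in mutants (log2 −0.24). In both, only mutant 3 and control 1 crossed. Vcl, vinculin, which joins actin to adhesion plaques, had 22.9 ± 1.32 FPKM in controls and 20.7 ± 2.76 FPKM in mutants (log2 −0.15). Itga8, integrin alpha 8, had 3.47 ± 0.397 FPKM in controls and 3.05 ± 0.471 FPKM in mutants (log2 −0.18). Ldb3, a PDZ and LIM protein also called Cypher, was the second member without a lower mutant mean. It had 14.6, 15.9 and 16 FPKM in controls and 17.9, 17.1 and 13.4 FPKM in mutants. Mutants 1 and 2 were its highest libraries and mutant 3 its lowest (means of 15.5 and 16.1 FPKM, log2 0.05, SE 0.12).

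The 3 transcriptional regulators had a median of −0.14, and none had an unadjusted p under 0.05. Srf, serum response factor (mm9 chr17:46683788-46693111), had 14.3, 14 and 12.7 FPKM in controls and 13.7, 12.2 and 12.8 FPKM in mutants. Its groups overlapped with close means (means of 13.7 and 12.9 FPKM, log2 −0.09, SE 0.08). Myocd, myocardin, the muscle-restricted coactivator, had 0.766, 0.579 and 0.832 FPKM in controls and 0.601, 0.594 and 0.43 FPKM in mutants. Mutants 1 and 2 lay above control 2, and the log2 fold change of −0.36 (SE 0.21, means of 0.726 and 0.542 FPKM) rested on 43.2 to 78.1 implied reads per library. Mkl2, a coactivator used by many cell types, had 5.22, 4.49 and 4.44 FPKM in controls and 4.31, 4.39 and 4.07 FPKM in mutants. The groups just cleared each other (means of 4.71 and 4.26 FPKM, log2 −0.14, SE 0.10).

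Serum response factor binds the CArG box, a 10-base motif of CC, then 6 letters that are each A or T, then GG, which has the same form on both strands. The 250 bases before the start site were searched in the 34 members matched in the RefSeq promoter table (build GRCm38.p6), 1 of them through an older symbol. Myh11, Actg2, Tagln, Myocd and Rock1 were not searched. An exact box was found in 6 of the 34 (17.6%), where 1.62% of 27025 symbols had one. Allowing 1 of the 6 inner letters to be G or C gave 11 (32.4%, against 9.78%). A match describes letters and is not a shown binding site. The stretches shown here, 5′ to 3′ and placed on mm9 by exact match, are from 2 filament genes with lower mutant means (Acta2, Myl9) and from 3 genes close to or above 0 (Srf, Cnn2, Ldb3). Capitals mark boxes that are exact or 1 letter off.
Acta2: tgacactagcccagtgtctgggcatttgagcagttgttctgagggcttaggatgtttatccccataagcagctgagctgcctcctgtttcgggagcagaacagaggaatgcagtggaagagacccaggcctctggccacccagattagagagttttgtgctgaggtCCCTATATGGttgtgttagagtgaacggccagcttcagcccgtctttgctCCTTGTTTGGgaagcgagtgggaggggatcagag
Myl9: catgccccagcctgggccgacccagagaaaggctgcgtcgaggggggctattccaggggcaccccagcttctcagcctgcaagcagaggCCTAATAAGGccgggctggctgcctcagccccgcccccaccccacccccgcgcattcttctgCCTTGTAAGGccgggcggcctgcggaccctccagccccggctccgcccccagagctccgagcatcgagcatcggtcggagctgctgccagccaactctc
Srf: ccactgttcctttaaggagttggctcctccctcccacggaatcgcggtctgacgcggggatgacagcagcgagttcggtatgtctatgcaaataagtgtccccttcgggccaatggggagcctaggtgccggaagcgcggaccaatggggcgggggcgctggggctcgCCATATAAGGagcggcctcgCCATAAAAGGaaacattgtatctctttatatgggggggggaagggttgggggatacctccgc
Cnn2: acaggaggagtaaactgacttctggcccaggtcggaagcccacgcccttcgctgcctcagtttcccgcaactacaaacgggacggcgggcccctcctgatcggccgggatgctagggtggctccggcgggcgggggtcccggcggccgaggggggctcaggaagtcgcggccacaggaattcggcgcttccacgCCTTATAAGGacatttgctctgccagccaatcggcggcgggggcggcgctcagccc
Ldb3: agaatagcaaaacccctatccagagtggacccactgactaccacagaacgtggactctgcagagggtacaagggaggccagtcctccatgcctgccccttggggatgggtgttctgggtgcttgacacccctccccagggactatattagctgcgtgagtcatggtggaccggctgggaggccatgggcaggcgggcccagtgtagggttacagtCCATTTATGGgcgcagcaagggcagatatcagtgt

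These stretches lie at chr19:34329864-34330113 (minus strand) for Acta2, chr2:156600950-156601199 (plus strand) for Myl9, chr17:46693112-46693361 (minus strand) for Srf, chr10:79451095-79451344 (plus strand) for Cnn2 and chr14:35401868-35402117 (minus strand) for Ldb3, where the more upstream of its start sites is shown. Acta2 holds CCCTATATGG and CCTTGTTTGG, starting 84 and 34 bases before the start site, each 1 letter off the box. Srf holds CCATATAAGG and CCATAAAAGG, both exact. Cnn2 and Vcl both hold CCTTATAAGG, Myl9 holds CCTAATAAGG, Ldb3 holds CCATTTATGG and Dmd holds CCTATTATGG. The second marked stretch of Myl9, CCTTGTAAGG, is 1 letter off the box. The 6 members with an exact box had a median log2 fold change of −0.12 (range −0.34 to 0.10), with Cnn2, Ldb3, Srf and Vcl among them. The 5 with a box 1 letter off had a median of −0.37, and the 23 with neither in the 250 bases had −0.38. Cnn2, Srf and Vcl are also among the 10 genes used by many cell types, whose median was −0.18. The classes thus differ in breadth of use as well. These medians are a description of genes chosen by name, without a test.

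The 6 genes that set myosin phosphorylation had a median of −0.32, all negative, with 3 separated. Ppp1r14a, which encodes CPI-17, the inhibitor of myosin phosphatase, had 14.8, 13.3 and 8.96 FPKM in controls and 9.86, 5.44 and 6.71 FPKM in mutants. It had the most negative value of the set (means of 12.4 and 7.34 FPKM, log2 −0.76, SE 0.26), yet control 3 lay below mutant 1, and each value rested on only 45 to 90 implied reads. Ppp1r12b, a myosin-targeting subunit of the phosphatase, had 2.43, 2.72 and 2.49 FPKM in controls and 1.77, 2 and 1.56 FPKM in mutants. These groups were clearly apart (means of 2.55 and 1.78 FPKM, log2 −0.50, SE 0.13). Between 46.8% and 55.5% of the Ppp1r12b level in each library was assigned to NR_015606, a non-coding RefSeq entry. The coding transcript NM_001081307 was also separated, with means of 1.24 and 0.896 FPKM (log2 −0.44, SE 0.21). Pde5a, the phosphodiesterase that breaks down cGMP, had 20.1, 17.4 and 17.3 FPKM in controls and 14.7, 14.3 and 14.5 FPKM in mutants. The mutants were nearly equal and below each control (means of 18.3 and 14.5 FPKM, log2 −0.33, SE 0.08, limma unadjusted p = 0.00525).

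The kinases of this step were closer to 0. Prkg1, the cGMP-dependent kinase, had 1.04 ± 0.118 FPKM in controls and 0.825 ± 0.111 FPKM in mutants with overlapping groups (log2 −0.30), and its locus shares 3752 bases with the more abundant Cstf2t. Rock1 and Rock2 are kinases made by most cells. Rock1 was separated, with 19.8 ± 0.48 FPKM in controls and 17.1 ± 1 FPKM in mutants (log2 −0.21). Rock2 overlapped, with 28.6 ± 3.69 FPKM in controls and 27.5 ± 2.01 FPKM in mutants (log2 −0.05, SE 0.11, and 0.00 with trimmed mean scaling).

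Of the small heat shock proteins, chaperones abundant in muscle, 1 was separated. Hspb6 (HSP20) had 15.8, 16.3 and 17.5 FPKM in controls and 11.5, 11.5 and 14.3 FPKM in mutants. Every mutant was lower than every control (means of 16.5 and 12.4 FPKM, log2 −0.42, SE 0.11). Hspb8 had 5.45, 6.29 and 8.37 FPKM in controls and 4.28, 4.82 and 7.72 FPKM in mutants. Library 3 was the highest in each group, and mutant 3 exceeded controls 1 and 2 (means of 6.7 and 5.61 FPKM, log2 −0.28, SE 0.25).

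The 2 muscarinic receptors and the junction protein were all separated (9.92% of all rows), with a median of −0.35. Jph2 was not separated with trimmed mean scaling. Chrm2, the M2 receptor, had 2.02, 2.25 and 2.1 FPKM in controls and 1.24, 1.59 and 1.48 FPKM in mutants. Its groups were clearly apart (means of 2.12 and 1.44 FPKM, log2 −0.54, SE 0.14, limma unadjusted p = 0.00637), on 38 to 87 implied reads per library. Jph2, junctophilin 2, which holds the calcium store against the cell membrane, had 5.04, 6.5 and 5 FPKM in controls and 4.75, 3.7 and 4.45 FPKM in mutants. The gap was narrow between mutant 1 and control 3 (means of 5.51 and 4.3 FPKM, log2 −0.35, SE 0.15). Chrm3, the M3 receptor that triggers contraction, had 1 ± 0.0302 FPKM in controls and 0.811 ± 0.125 FPKM in mutants (log2 −0.29, SE 0.17), on 43 to 67 implied reads.

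The authors' transcript tables list 1 transcript for 28 of the 39 genes and several for 11. Of 58 transcripts tested, 28 were separated with lower mutants (8.6% of 19827 transcripts) and 0 passed an adjusted p of 0.05 in limma (0.0454%). With an unadjusted p under 0.05 in the lower direction there were 23 (3.22%). For the 28 genes with 1 transcript the transcript values repeat the gene values, so these counts partly repeat the gene counts. The separated transcripts include NM_026131 of Pdlim7, which was near 0 in every library except control 3 (2.23 FPKM). Both Myh11 transcripts, which differ by 39 bases in length, were separated. NM_001161775 had 41.1 ± 6.65 FPKM in controls and 28.8 ± 1.42 FPKM in mutants (log2 −0.50), and NM_013607 had 35.6 ± 3.72 FPKM in controls and 24.4 ± 4.77 FPKM in mutants (log2 −0.56). Their ratio overlapped, at 0.752 to 1.07 in controls and 0.645 to 0.986 in mutants.

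The main transcripts of Tpm1 differed in their values. NM_001164249 had 141, 162 and 152 FPKM in controls and 123, 99.8 and 124 FPKM in mutants. Its groups were apart (log2 −0.39, SE 0.11). NM_001164253 had 195, 188 and 154 FPKM in controls and 180, 168 and 158 FPKM in mutants. Its groups overlapped (log2 −0.08, SE 0.11). The ratio of the first to the second was 0.723 to 0.987 in controls and 0.594 to 0.785 in mutants, which overlapped, so a difference between them was not shown.

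Synm was listed with 3 transcripts. NM_201639 had 3.65, 4.66 and 5.2 FPKM in controls and 1.9, 2.69 and 2.02 FPKM in mutants. Each mutant was below each control (log2 −1.0, SE 0.20, limma adjusted p = 0.735 over transcripts). NM_207663 had 5.73 ± 0.0782 FPKM in controls and 4.45 ± 0.523 FPKM in mutants (log2 −0.36). The ratio of NM_201639 to NM_207663 was 0.641 to 0.893 in controls and 0.383 to 0.686 in mutants, which overlapped, so here too a difference between transcripts was not shown. The other, NM_183312, was estimated at 1.43 and 2.34 FPKM in mutants 1 and 3 and near 0 in the other 4 libraries. Transcript levels divide shared reads by estimation, and a value near 0 can be a failed estimate.

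**Figure D4:**
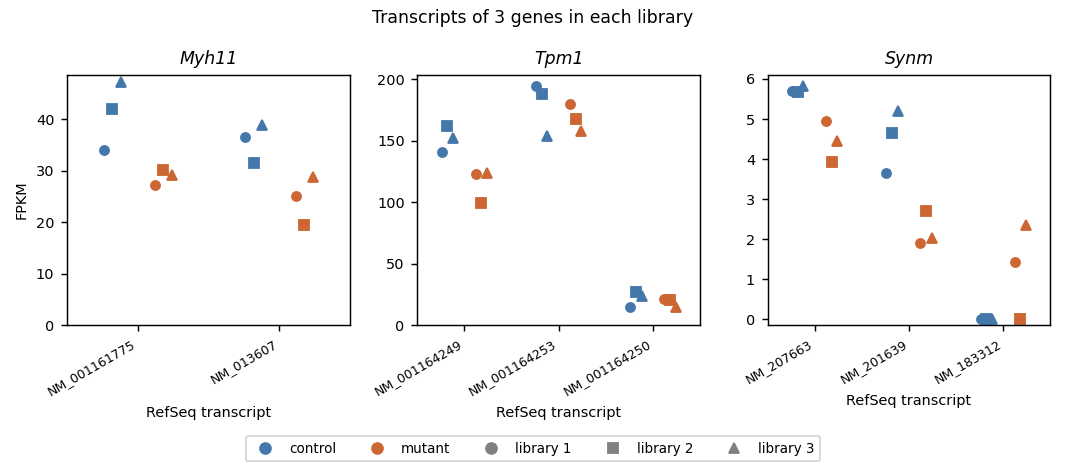
FPKM of RefSeq transcripts of Myh11, Tpm1 and Synm in each library (controls blue, mutants orange, symbols for libraries 1 to 3). Both Myh11 transcripts, NM_001164249 of Tpm1, and NM_207663 and NM_201639 of Synm have all mutants below all controls, while NM_001164253 and NM_001164250 of Tpm1 overlap and NM_183312 of Synm lies near 0 in 4 libraries.

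Each group held 1 female library, which was also the library richest in acinar RNA, and the female control was the one without the reporter. For 14 genes (11.8% of all rows), among them Myh11, Actg2, Tagln, Cnn1, Tpm2 and Des, the female library was the highest of both groups, and for Vcl, Itga8, Mkl2, Prkg1 and Chrm3, 5 genes (24.3% of all rows), it was the lowest of both. Male mutants lay below male controls for 34 of 39 members (24.6% of all rows), with Cnn2, Vcl, Ldb3, Myocd and Rock2 as the exceptions, and the median log2 difference was −0.36. In a limma fit of male libraries, 18 members had an unadjusted p under 0.05 in the lower direction (2.4% of all rows). The female mutant lay below the female control for 38 of 39 (54.4% of all rows), with Srf as the exception and a median of −0.31 in this single pair. Pancreatic acinar RNA summed to 14000 FPKM in control 3 and 15200 FPKM in mutant 3 over 16 rows of 13 genes. Amy2a5 was counted in several of these rows, at nearly equal levels. In male libraries this sum was 32.95 and 538.5 FPKM in controls 1 and 2, and 3308 and 3622 FPKM in mutants 1 and 2. Acinar RNA and mutant status thus cannot be told apart in the male comparison. Sex and acinar RNA cannot be fully told apart over the 6 libraries either, and their part in single members was not tested. With each library rescaled to its FPKM total without acinar genes, the median of the 39 was −0.39. The main fit was not rescaled to a total, so this value mixes that rescaling with the omission of acinar genes.

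Other smooth muscle genes, 71 in 5 lists, gave 67 rows tested. Their median was −0.16, and 55 of them had values under 0, where 61.3% of all rows did. Every mutant was below every control for 19 of the 67 (9.92% of all rows) and above for 0 (3.13%). In limma 14 had an unadjusted p under 0.05 in the lower direction (4.32% of all rows) and 0 in the higher (1.49%). None, or 0, passed an adjusted p of 0.05. Calcium and potassium handling lay lowest, with 13 of 13 negative, 8 separated and a median of −0.41. Of those separated, Ryr2, Ryr3, Trpc4 and Cacna1c were low, with control means of 0.221, 0.18, 0.237 and 0.606 FPKM. Their unadjusted limma p was above 0.05, and it was below 0.05 for the 4 others separated. Ryr2 and Ano1 also stand in marker lists given further on. Ano1, a calcium-activated chloride channel that marks interstitial cells of Cajal, had 3.13, 3.41 and 2.95 FPKM in controls and 2.09, 2.27 and 1.8 FPKM in mutants. Kcnmb1, the beta subunit of the large-conductance potassium channel of smooth muscle, had 1.89, 1.72 and 2.02 FPKM in controls and 1.35, 1.17 and 1.19 FPKM in mutants. Each mutant was below each control in both (log2 −0.60, SE 0.13, and −0.57, SE 0.13).

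The other 4 lists had medians closer to the −0.05 of all rows, of which 61.3% were negative. Relaxation by nitric oxide and cyclic nucleotides had 6 of 9 negative (median −0.24), with log2 fold changes of −0.34 for Pde3a, a cyclic nucleotide phosphodiesterase, and −0.38 for Adcy5, an adenylyl cyclase. Sarcolemma and caveolae had 11 of 12 negative (median −0.15), with −0.17 for Itgb1, integrin beta 1, and −0.32 for Sgcb, a sarcoglycan. Filament proteins of many cell types had 18 of 23 negative (median −0.09), with −0.33 for Actn1, alpha actinin 1, and −0.59 for Nexn, nexilin. Transcription had 7 of 10 negative (median −0.09), with −0.45 for Mef2c and −0.18 for Mef2a. In this order of lists, 3, 1, 6 and 1 genes were separated with lower mutants (9.92% of all rows). Those lower with an unadjusted limma p under 0.05 numbered 3, 1, 5 and 1 (4.32% of all rows).

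**Figure D5:**
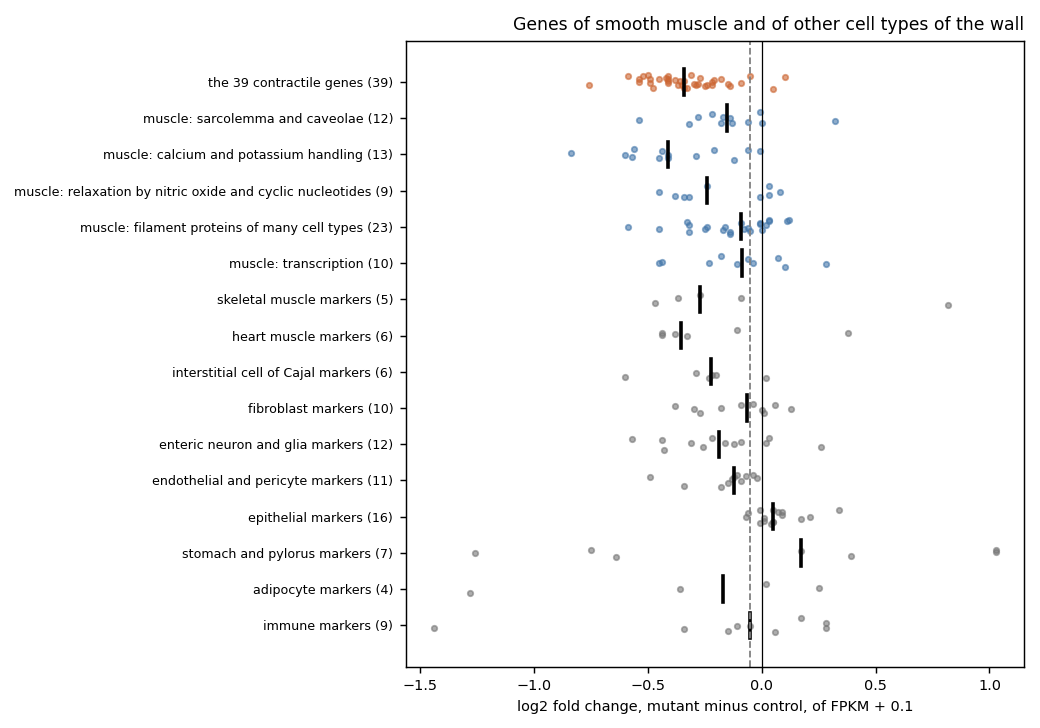
Log2 fold change, mutant minus control, of single genes (points; vertical scatter only separates them) for the 39 contractile genes (orange), 5 lists of other smooth muscle genes (blue) and markers of other cell types (grey), with rows tested in brackets, black bars at list medians and a dashed line at the median of all rows, −0.05. Among the smooth muscle lists the contractile genes (−0.34) and calcium and potassium handling (−0.41) have the lowest medians, and epithelial markers centre on 0.05.

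Markers of other cells of the wall were counted beside the contractile genes, again with 61.3% of all rows negative. Interstitial cell of Cajal markers had 5 of 6 negative (median −0.22) and summed to 33.6 to 36.6 FPKM in controls and 28.4 to 32.5 FPKM in mutants, led by Ano1 and by Gja1 (−0.29). Endothelial and pericyte markers had 11 of 11 negative (median −0.12) and summed to 99.4 to 112 FPKM in controls and 85.3 to 94.6 FPKM in mutants. Both sums were lower in every mutant, but 1 of the 11 endothelial and pericyte genes, Rgs5, was separated. Without Rgs5 that sum overlapped, at 60.5 to 69.2 FPKM in controls and 56.3 to 65.4 FPKM in mutants. Rgs5, a marker of pericytes and vascular muscle, had 42.4, 36.5 and 47.7 FPKM in controls and 31.5, 29.1 and 28.9 FPKM in mutants, without overlap (log2 −0.49, SE 0.11).

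Sums of the other lists overlapped between the groups. Enteric neuron and glia markers had 9 of 12 negative (median −0.19), at 33 to 48.6 FPKM in controls and 31 to 35.1 FPKM in mutants, with −0.22 for Vip and −0.57 for Snap25. Fibroblast markers had 7 of 10 negative (median −0.07), at 375 to 399 FPKM and 339 to 400 FPKM, with 0.01 for Col3a1 and −0.30 for Postn. Epithelial markers had 4 of 16 negative (median 0.05), at 21200 to 29100 FPKM and 24400 to 29100 FPKM, with 0.17 for Apoa1 and 0.34 for Fabp2. The part of the make-up of the wall in the contractile values was not tested.

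Skeletal muscle markers had 4 of 5 negative (median −0.27), at 12.3 to 16.3 FPKM in controls and 11.8 to 14 FPKM in mutants, with −0.27 for Ckm and −0.47 for Mylpf. Acta1, skeletal actin, named after its values were seen, had 1.39, 1.86 and 1.57 FPKM in controls and 3.95, 2.06 and 2.96 FPKM in mutants, with every mutant above every control (log2 0.82). Heart muscle markers had 5 of 6 negative (median −0.35), at 18.2 to 30 FPKM and 22.3 to 29.5 FPKM, with 0.38 for Myl7 and −0.44 for Ryr2. Pancreatic acinar markers were positive in 16 of 16 rows (median 3.18), at 33 to 14000 FPKM and 3310 to 15200 FPKM, with 3.55 for Ctrb1. Stomach and pylorus markers had 3 of 7 rows negative (median 0.17), at 19 to 181 FPKM and 18 to 70.3 FPKM, with −0.64 for Gkn3 and 1.03 for Tff1, and Muc5ac at 0. Adipocyte markers had 2 of 4 negative (median −0.17), at 104 to 138 FPKM and 120 to 144 FPKM, with 0.25 for Cidec and −1.28 for Cfd. Immune markers had 5 of 9 negative (median −0.05), at 143 to 150 FPKM and 139 to 164 FPKM, with 0.17 for C1qa and 0.28 for Cd8a.

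The authors' deposited table of their own comparison covers the same 6 libraries. By the authors' deposited table, 36 of the 39 members were lower in mutants, 16 of them with an unadjusted p under 0.05 (0.917% of its 18541 rows with a p), and 0 had an adjusted p under 0.05. The share of all its rows that were lower is not given here. In the limma fit of FPKM 61.3% of all rows were negative. Synpo2 had the smallest p of a member in the authors' deposited table (0.000841, log2 −0.43). The authors' deposited table put Myh11 at −0.48, Rock2 at 0.00, Ldb3 at 0.10 and Cnn2 at 0.13 on the log2 scale.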

How the data were processed

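Duodenal RNA of 6 mice was sequenced after TruSeq library preparation, per the labels' protocols. The submitters' processing notes name CASAVA 1.8.2, TopHat, Cufflinks, DESeq and build mm9. Other versions, read length and strand use were not given in the sources used here. The deposited FPKM values per gene and transcript were used as they stand. The deposited coverage column was not used in a test, and depth was read back from the authors' FPKM intervals. The authors' comparison table holds mean signal per group, a ratio (fold) with its log2 and p-values, which were deposited and only copied.

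From the FPKM, log2(FPKM + 0.1) of 15864 of 23699 gene rows with a mean of at least 0.1 FPKM was fitted with limma 3.58.1 in R 4.3.3 (trended prior variance), mutant against control, with Benjamini-Hochberg adjustment over all rows. Log2 fold changes of low genes are understated on this scale. The fit was tested on simulated data. The labels give each mouse its own number, so p-values measure the spread between these animals. Same-numbered controls and mutants had correlated deviations (0.106, 0.207 and 0.389 for numbers 1 to 3). The main fit, which gave the standard errors and p-values printed here, did not pair them. Of the other pairs, control 1 with mutant 2 reached 0.127 and control 2 with mutant 1 0.061, the rest were negative, and the highest pair is that of the 2 female libraries. A fit with the replicate block was run as an alternative, beside other pseudocounts, filters, scalings, weights, a sex covariate and the omission of each library. A fit of male libraries only was added after seeing the data. Reads shared by overlapping genes cannot be assigned without strand.

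The members and lists were chosen with earlier results of these data known. A further list of smooth muscle genes is not reported here and is in none of the totals. Every member is named with its means, and library values are given in each role for the 2 smallest unadjusted p and the gene farthest from the median, and for Acta2, Actg2, Myh11, Tagln, Des, Myocd and Srf. Of each other smooth muscle list the 2 genes with the smallest unadjusted p are named, and of each marker list the most abundant gene and the one with the smallest unadjusted p. Sequences are from RefSeq.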

Additional observations from a re-analysis of the deposited data

Results flagged for a closer look

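In 4 genes the mean difference had opposite signs in the male libraries and the female pair, and in 2 of them, Ldb3 and Srf, both male mutants lay on 1 side of both male controls and the female mutant on the other side of the female control. For Ldb3 the mutant minus control log2 difference was 0.20 in male libraries and −0.25 in the female pair. A limma interaction test, added after seeing the data, gave a difference of −0.45 (unadjusted p = 0.0397, adjusted p = 1), and 2.86% of all rows had an unadjusted p under 0.05 in that test. For Srf the values were −0.13 in male libraries and 0.01 in the female pair, with an interaction of 0.14 (limma unadjusted p = 0.445, adjusted p = 1). The other 2 were Cnn2, at 0.17 and −0.06, and Rock2, at 0.02 and −0.19, whose male groups overlapped. The female values rest on 1 library per group.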

How the results depend on the processing

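Of 699 values of single members under 18 alternatives, 693 kept their direction and their side of the threshold, and the smallest adjusted p of a member in any limma fit was 0.41. The 6 others were in 3 genes: Cnn2 at −0.03 without control 1 (−0.03 to 0.17 over the libraries left out), Ldb3 at −0.03 without mutant 1 (−0.03 to 0.17), and Rock2 at 0.00 with trimmed mean scaling, 0.00 without control 1, 0.01 without control 3 (−0.16 to 0.01) and 0.02 in male libraries only. With trimmed mean scaling 15 members were separated and 14 had an unadjusted p under 0.05. Leaving out 1 library at a time gave medians of −0.41 to −0.32, 25 to 30 separated members (13.4% to 19.8% of all rows, since separation needs less with fewer libraries), 14 to 25 with an unadjusted p under 0.05 in the lower direction, 36 to 38 negative values and 0 members past adjustment. Over all genes, 0 to 3 then passed an adjusted p of 0.05, against 1 with scaling without acinar genes, 2 with the replicate block and 1 with the sex covariate. The replicate block moved no member past an adjusted p of 0.05. It gave 26 members lower with an unadjusted limma p under 0.05, where the main fit gave 25. In male libraries 18 members had an unadjusted p under 0.05. Depth limits Chrm2, Chrm3, Myocd and Ppp1r14a, whose shallowest libraries hold 38, 43, 43.2 and 45 implied reads.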
